A study of Caenorhabditis elegans with 36 samples.

Results

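Transcripts of 8 *C. elegans* genes for digestive enzymes of the lysosome were followed through adult aging: the 5 prolyl carboxypeptidase genes *pcp-1*, *pcp-2*, *pcp-3*, *pcp-4* and *pcp-5*, and the 3 DNase II genes *nuc-1*, *crn-6* and *crn-7*. They were chosen by gene symbol, and each had 1 entry among the 18949 genes of the expression table. RNA came from whole wild-type (N2) worms on every other day of adulthood between day 1 and day 11 (6 days). They were raised at 20 °C on *cco-1* RNAi or on control RNAi (empty vector, ev), and each of the 12 groups has 3 biological replicates, 36 libraries in all. *cco-1* codes for part of mitochondrial respiratory complex IV. By the labels, its RNAi bacteria were 50% of the food, mixed with control bacteria, and were given from the L1 larva on. The labels give 2.5 days of RNAi and an L4 or young adult harvest for all 36 samples alike, and the ages used here come from the sample titles.

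Lysosomes break down proteins, nucleic acids and other material delivered from outside the cell, from dying cells and from the cell's own parts. The *pcp* genes are named after mammalian lysosomal prolyl carboxypeptidase, a serine peptidase of family S28 that removes the last amino acid of a peptide when a proline precedes it. DNase II enzymes cut DNA at acid pH: worms need NUC-1 to clear the DNA of engulfed dying cells and of bacteria in the gut, and CRN-6 and CRN-7 are its relatives, named as cell-death-related nucleases.

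Levels are in CPM, read counts that the study scaled to library size and then normalized between libraries, so that a level is relative to the other genes of its library, and read depth is unknown. The targeted transcript was lower in *cco-1* RNAi worms at all 6 days: *cco-1* had 178, 186 and 192 CPM in *cco-1* RNAi worms at day 1, against 271, 286 and 270 CPM in ev worms, and its log2 fold change lay between -1.57 and -0.57. Replicates were less alike in 3 of the *cco-1* RNAi groups, with a median SD over genes of 0.105, 0.119 and 0.115 on the log2 scale at days 5, 9 and 11, against 0.0732 to 0.0869 in the other 9 groups. At days 9 and 11 of *cco-1* RNAi, replicate 1 was the highest library and replicate 2 the lowest for *pcp-1*, *pcp-5*, *nuc-1* and *crn-6*, whereas replicate 2 was the highest for *pcp-3*. The 20 intestinal marker genes measured moved likewise, with summed levels of 1117, 887 and 1001 CPM in *cco-1* RNAi replicates 1, 2 and 3 of day 11, and the part of gut RNA content in the values of those libraries was not tested.

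Each comparison was tested with limma on log2(CPM + 1) over the 15713 genes that reached 1 CPM in 3 or more libraries, which included all 8 genes. A gene was called higher or lower when its log2 fold change (log2FC, *cco-1* RNAi minus ev, given with its standard error, SE) exceeded 0.5 in size and its Benjamini-Hochberg adjusted P over all those genes was below 0.05. The SE of a gene rests on its spread over all 12 groups together. For *cco-1* RNAi at days 5, 9 and 11, where replicates were less alike, SE and adjusted P can therefore understate the spread. At day 1, 1 of the 8 genes was higher and 3 were lower, where 9.09% of all genes tested were called. The counts were 2 higher and 3 lower at day 3 (17.3% of all genes called), 2 and 3 at day 5 (33.4%), 2 and 2 at day 7 (24.6%), 2 and 1 at day 9 (18.1%), and 5 and 0 at day 11 (28.3%). Libraries of the 2 RNAi conditions did not overlap for 6 of the 8 genes on day 1 (49.1% of all genes), for 6 on day 3 (58.2%) and for 8 on day 5 (70.4%). In older worms this held for 7 genes on day 7 (66.6%), for 5 on day 9 (54.7%) and for 7 on day 11 (67.5%). The lower genes were *nuc-1*, *crn-6* and *pcp-3*, and the 5 higher genes of day 11 were the 5 *pcp* genes.

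*nuc-1* transcripts were scarcer in *cco-1* RNAi worms during the first week of adulthood. *nuc-1*, which lies on chromosome X from 9539905 to 9542329 on the plus strand of WBcel235, had 24.0, 23.9 and 26 CPM in *cco-1* RNAi worms at day 1, against 98.2, 90.1 and 93.5 CPM in ev worms. The log2FC was -1.89 (SE 0.0749, limma adjusted P 2.43e-22), a ratio of 0.262 between the mean levels. At day 7, *nuc-1* still had 33.2, 35.4 and 33.4 CPM in *cco-1* RNAi worms, against 91.7, 84.6 and 89 CPM in ev worms (log2FC -1.35, SE 0.0749, limma adjusted P 5.42e-18). At days 3 and 5 its log2FC was -1.11 and -1.51. The libraries of the 2 RNAi conditions did not overlap for *nuc-1* at any of these days.

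The *nuc-1* difference then closed, through the ev worms. At day 9, *nuc-1* had 22.2, 16.6 and 21.1 CPM in *cco-1* RNAi worms, against 26.1, 28.3 and 26.9 CPM in ev worms. Its log2FC of -0.43 (SE 0.0749, limma adjusted P 7.75e-06) had a size under the threshold of 0.5, and it was -0.51 and called without *cco-1* RNAi day 9 replicate 1. At day 11, *nuc-1* had 24.0, 18.6 and 19.5 CPM in *cco-1* RNAi worms, all above the 17.6, 15.9 and 15.6 CPM of ev worms, with a log2FC of 0.32 (SE 0.0749) that was not called. Over the 12 groups, *nuc-1* was highest in ev worms of days 5, 1, 7 and 3, which averaged 99.7, 93.9, 88.5 and 76.0 CPM. Next came *cco-1* RNAi at days 3, 5 and 7, with overlapping libraries between 33.1 and 36 CPM, then ev worms of day 9, *cco-1* RNAi at days 1, 11 and 9, and last ev worms of day 11.

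*crn-6* was lower in *cco-1* RNAi worms from day 1 to day 9, at lower levels than *nuc-1* per kb of exon in each of the 12 groups. *crn-6* (chromosome III, 9367271 to 9370381, plus strand) had 6.46, 7.54 and 7.63 CPM in *cco-1* RNAi worms at day 1, against 23.7, 21.1 and 22.1 CPM in ev worms (log2FC -1.51, SE 0.107, limma adjusted P 1.4e-14). Its difference was widest at day 5, with 9.51, 9.24 and 10.6 CPM in *cco-1* RNAi worms and 35.1, 37.1 and 38.8 CPM in ev worms (log2FC -1.82, SE 0.107, limma adjusted P 1.95e-17). *crn-6* stayed lower at day 9, at 6.10, 3.55 and 4.54 CPM in *cco-1* RNAi worms against 9.79, 11.8 and 11.2 CPM in ev worms (log2FC -1.08, SE 0.107). At day 11 the libraries overlapped, with 4.60, 3.46 and 3.94 CPM in *cco-1* RNAi worms and 4.31, 5.68 and 4.82 CPM in ev worms, and the log2FC of -0.25 (SE 0.107) was not called.

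Of all genes tested, 120 (0.764%) were called lower in *cco-1* RNAi worms at each of days 1, 3, 5 and 7, and *nuc-1* and *crn-6* were among them. Their group means correlated at r = 0.961 over the 12 groups, as a description of means that share the same libraries. The level of *nuc-1* was still not a fixed multiple of that of *crn-6*: at day 11 the ratio of the 2 genes was 4.95 to 5.37 in *cco-1* RNAi libraries and 2.8 to 4.08 in ev libraries, whereas at day 1 it was 3.17 to 3.71 in *cco-1* RNAi libraries and 4.15 to 4.26 in ev libraries. In whole worms, fewer cells of a type and less RNA per cell cannot be told apart for any of these genes.

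*crn-7* did not share the pattern of the other DNase II genes. *crn-7* (chromosome III, 8268531 to 8270684, plus strand) had 11.2, 11.2 and 10.7 CPM in *cco-1* RNAi worms at day 1 and 11.6, 11.2 and 10.2 CPM in ev worms, with a log2FC of 0.01 and a 95% interval of -0.18 to 0.19. Its widest differences were a log2FC of 0.46 at day 5 and 0.45 at day 7 (SE 0.0918 each, limma adjusted P 3.37e-05 and 6.9e-05), under the threshold of 0.5. At day 5, *crn-7* had 9.75, 9.57 and 8.95 CPM in *cco-1* RNAi worms and 5.98, 6.30 and 7.47 CPM in ev worms, which did not overlap. With a pseudocount of 0.1 the *crn-7* log2FC passed the threshold at days 5 and 7, at 0.52 and 0.50, and without ev day 5 replicate 3 it did so at day 5, at 0.55.

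**Figure D1:**
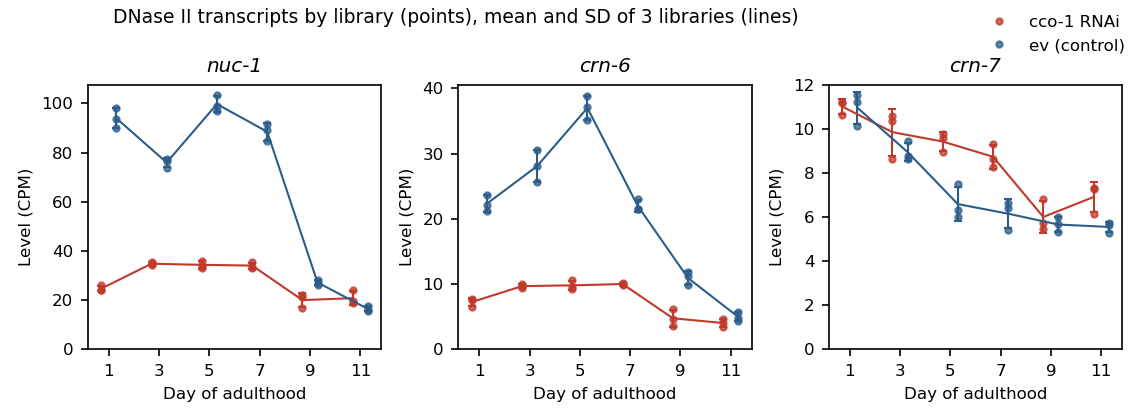
Levels in CPM (linear axes starting at 0) of *nuc-1*, *crn-6* and *crn-7* against day of adulthood, with 1 point for each library and lines through the means of 3 libraries with their SD, for *cco-1* RNAi and ev worms. The *nuc-1* and *crn-6* levels of *cco-1* RNAi worms lie below those of ev worms up to day 9. At day 11 *nuc-1* lies above the ev libraries and *crn-6* overlaps them, and *crn-7* stays between 5.27 and 11.6 CPM in all libraries.

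Summed over the 3 genes, DNase II transcripts averaged 42.9 ± 1.32 CPM in *cco-1* RNAi worms at day 1 and 127 ± 5.65 CPM in ev worms (SD, n = 3 each). At day 11 the sums were 31.6 ± 3.77 CPM in *cco-1* RNAi worms and 26.9 ± 0.595 CPM in ev worms (SD, n = 3 each).

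Among the peptidases, *pcp-4* was the only one of the 5 genes called higher in *cco-1* RNAi worms at all 6 days. *pcp-4* (chromosome V, 19822734 to 19831011, minus strand) had 65.1, 59.3 and 58.8 CPM in *cco-1* RNAi worms at day 1, against 36.5, 40.4 and 38.4 CPM in ev worms (log2FC 0.65, SE 0.0978, limma adjusted P 1.18e-06). At day 5 it had 8.1, 7.56 and 8.29 CPM in *cco-1* RNAi worms, against 3.46, 4.15 and 3.62 CPM in ev worms (log2FC 0.92, SE 0.0978, limma adjusted P 1.59e-10). The libraries of the 2 RNAi conditions did not overlap for *pcp-4* at any day, and 98 of all genes tested (0.624%) were called higher at all 6 days.

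At day 11, *pcp-4* was down to 1.44, 1.83 and 1.51 CPM in *cco-1* RNAi worms and to 0.470, 0.441 and 0.254 CPM in ev worms, a ratio of 4.1 between the mean levels. The log2FC on log2(CPM + 1), 0.90 (SE 0.0978, limma adjusted P 5.19e-10), understates a ratio at such low levels. With a pseudocount of 5 the *pcp-4* log2FC was 0.40, 0.21 and 0.29 at days 7, 9 and 11 and no longer called, and with 0.1 it was 1.82 at day 11.

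*pcp-2* differed later. *pcp-2* (chromosome IV, 9160588 to 9165127, minus strand) had 97.5, 95.4 and 94.2 CPM in *cco-1* RNAi worms at day 1 and 112, 117 and 115 CPM in ev worms, a log2FC of -0.26 (SE 0.104) that was not called although the libraries did not overlap. At day 7 *pcp-2* had 14, 11.8 and 13.2 CPM in *cco-1* RNAi worms, against 5.21, 5.56 and 5.88 CPM in ev worms (log2FC 1.09, SE 0.104, limma adjusted P 1.92e-11). It was higher in *cco-1* RNAi worms at day 5 too (log2FC 0.90) and at day 11 (log2FC 0.74, SE 0.104), when *pcp-2* had 1.52, 1.03 and 1.51 CPM in *cco-1* RNAi worms and 0.329, 0.510 and 0.379 CPM in ev worms, a ratio of 3.33 between the mean levels. The log2FC of day 11 was 1.52 with a pseudocount of 0.1 and 0.23 and not called with 5, and that of day 9, 0.28, was 0.56 and called with a pseudocount of 0.1.

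*pcp-3* crossed over between young and old worms. *pcp-3*, which lies next to *pcp-2* on the same strand of chromosome IV (9155148 to 9159019, 1568 bp away), had 83.7, 84.0 and 84.4 CPM in *cco-1* RNAi worms at day 1, against 159, 159 and 158 CPM in ev worms (log2FC -0.91, SE 0.097, limma adjusted P 8.79e-10). It was lower at day 3 too, at 12.1, 11.9 and 11.9 CPM in *cco-1* RNAi worms against 27.8, 26.9 and 24.1 CPM in ev worms (log2FC -1.07, SE 0.097). At day 5 the log2FC was -0.54 (SE 0.097, limma adjusted P 8.22e-06), and without *cco-1* RNAi day 5 replicate 2 it was -0.45 and not called.

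In old worms *pcp-3* was the higher in *cco-1* RNAi. At day 9 it had 13.3, 17 and 13.5 CPM in *cco-1* RNAi worms, against 8.15, 7.96 and 7.08 CPM in ev worms (log2FC 0.83, SE 0.097, limma adjusted P 4.23e-09). At day 11 it had 9.86, 14.2 and 12 CPM in *cco-1* RNAi worms, against 5.1, 6.51 and 5.50 CPM in ev worms (log2FC 0.95, SE 0.097, limma adjusted P 1.26e-10). From day 3 to day 11 the *cco-1* RNAi groups of *pcp-3* lay within 9.86 to 17 CPM, each overlapping its neighbour in the order of levels, whereas ev worms had lower levels at days 9 and 11 than at any earlier day. Of all genes tested, 312 (1.99%) were called lower in *cco-1* RNAi worms at day 1 and higher at day 11.

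*pcp-5*, on chromosome III from 7904943 to 7907615 on the minus strand, stayed at 61.2 CPM or more in every library up to day 7. At day 1 it had 70.5, 72.4 and 71.3 CPM in *cco-1* RNAi worms and 77.3, 75.6 and 80.6 CPM in ev worms, with a log2FC of -0.12 and a 95% interval of -0.38 to 0.13. At day 3 *pcp-5* was higher, with 96.3, 95.2 and 106 CPM in *cco-1* RNAi worms against 61.2, 69.5 and 64.3 CPM in ev worms (log2FC 0.60, SE 0.124, limma adjusted P 0.000227). At days 5, 7 and 9 its log2FC was 0.37, 0.37 and 0.44 and not called, with libraries that did not overlap at any of the 3 days. The value of day 9 was 0.58 and called without *cco-1* RNAi day 9 replicate 2, and it was 0.28 at the lowest when 1 library was left out.

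At day 11 *pcp-5* had 61.5, 35.2 and 47.2 CPM in *cco-1* RNAi worms, all above the 22.6, 22.2 and 24.3 CPM of ev worms. The log2FC was 0.99 (SE 0.124, limma adjusted P 1.32e-07) and lay between 0.80 and 1.19 when each library of the 2 groups was left out in turn. This SE is pooled over the 12 groups, whereas the SD at day 11 was 13.2 CPM in *cco-1* RNAi worms and 1.14 CPM in ev worms. *pcp-1* (chromosome III, 7758903 to 7761262, plus strand) was called at day 11 only, when it had 14.3, 9.98 and 11.6 CPM in *cco-1* RNAi worms and 5.92, 6.42 and 5.74 CPM in ev worms (log2FC 0.87, SE 0.097, limma adjusted P 9.34e-10). At days 1 to 9 the *pcp-1* log2FC lay between -0.34 and 0.19.

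**Figure D2:**
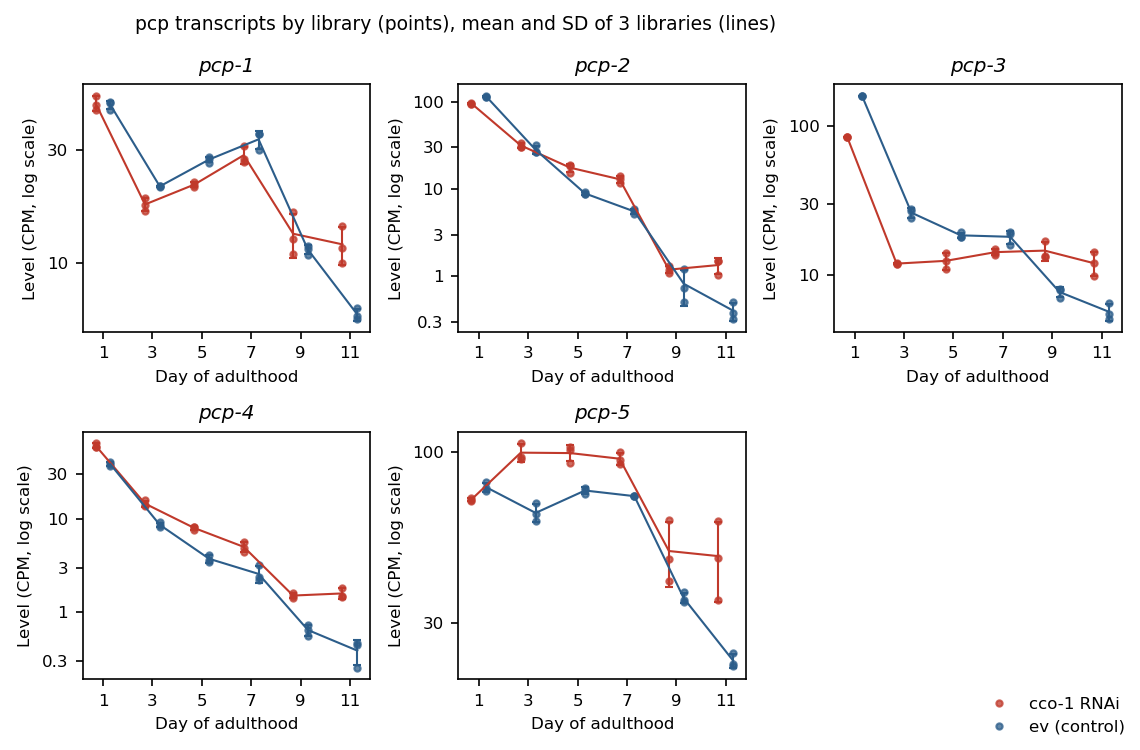
Levels in CPM (log axes) of the 5 *pcp* genes against day of adulthood, with 1 point for each library and lines through the means of 3 libraries with their SD, for *cco-1* RNAi and ev worms. At day 11 every *cco-1* RNAi library lies above every ev library for each of the 5 genes, and *pcp-3* starts at about 84.1 CPM in *cco-1* RNAi worms and 158.5 CPM in ev worms at day 1.

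The 5 *pcp* genes together summed to 359.7 ± 3.73 CPM in *cco-1* RNAi worms at day 1, against 436.5 ± 6.01 CPM in ev worms (SD, n = 3 each). The order was already turned round at day 3, with sums of 175.1 ± 4.9 CPM in *cco-1* RNAi worms and 149.2 ± 7.7 CPM in ev worms. It stayed so at days 5, 7 and 9, with mean sums of 158.5, 156.0 and 80.3 CPM in *cco-1* RNAi worms. In ev worms these were 134.7, 132.7 and 56.3 CPM. At day 11 the sums were 74.9 ± 13.2 CPM in *cco-1* RNAi worms and 35.5 ± 1.02 CPM in ev worms (SD, n = 3 each). All 5 genes were called higher at day 11, where 15.1% of all genes tested were called higher, and each stayed called when any library of day 11 was left out. With a pseudocount of 5, 3 of the 5 were called.

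**Figure D3:**
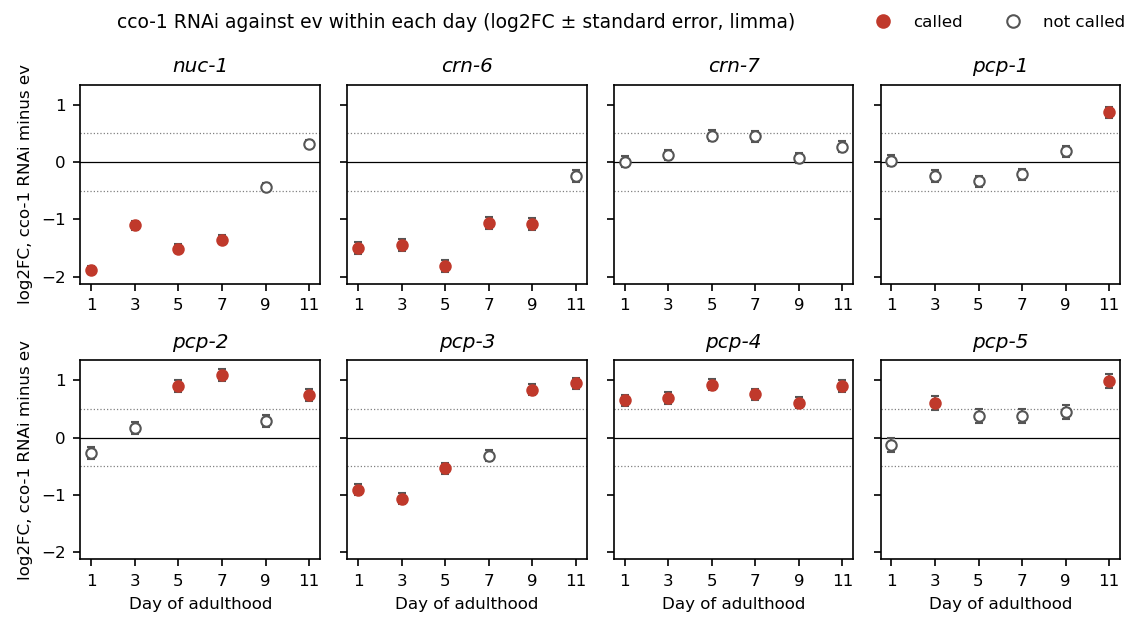
The log2FC of each gene (*cco-1* RNAi minus ev, with its SE from limma) at each day, filled where called and open where not, with dotted lines at the threshold of 0.5 in both directions. *nuc-1* starts at -1.89 and ends at 0.32, *pcp-4* stays between 0.61 and 0.92, and the 5 *pcp* genes lie between 0.74 and 0.99 at day 11 on this log2(CPM + 1) scale, where their ratios of mean levels run from 1.99 (*pcp-1*) to 4.1 (*pcp-4*).

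The second question was how these transcripts moved with age. From day 1 to day 11, all 8 genes fell in ev worms and 7 of 8 fell in *cco-1* RNAi worms, where 23.7% of all genes tested fell in *cco-1* RNAi worms and 27.4% in ev worms. Levels are relative to the other genes of a library, and over all genes tested the median log2FC was 0.18 in *cco-1* RNAi worms and 0.31 in ev worms. By ratio of means, the steepest falls were those of *pcp-2* and *pcp-4*. Mean *pcp-2* levels at day 1 were 70.7 times those at day 11 in *cco-1* RNAi worms and 283 times in ev worms. Those of *pcp-4* were 38.3 times in *cco-1* RNAi worms and 98.9 times in ev worms. These ratios rest on low levels at day 11, with ev means of 0.406 CPM for *pcp-2* and 0.3885 CPM for *pcp-4*. On log2(CPM + 1) the ev changes were -6.37 for *pcp-2*, -4.83 for *pcp-4* and -4.58 for *pcp-3*. With a pseudocount of 5, *pcp-3* fell more than *pcp-4* in ev worms, whereas *pcp-4* fell more in *cco-1* RNAi worms. *pcp-3* was 6.98 times as high at day 1 as at day 11 in *cco-1* RNAi worms and 27.8 times in ev worms.

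*nuc-1* was the gene that did not fall in *cco-1* RNAi worms by the threshold. Its log2FC from day 1 to day 11 was -0.25 (SE 0.0749, limma adjusted P 0.00309) in *cco-1* RNAi worms and -2.45 (SE 0.0749, limma adjusted P 1.72e-27) in ev worms. *pcp-5* fell by 0.60 (SE 0.124) on the log2 scale in *cco-1* RNAi worms and by 1.71 (SE 0.124) in ev worms. Without *cco-1* RNAi day 11 replicate 2 the change of *pcp-5* in *cco-1* RNAi worms was -0.40 and not called.

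The falls were not spread evenly over adult life. By day 5, *pcp-1*, *pcp-2*, *pcp-3* and *pcp-4* had fallen under both RNAi conditions, with log2FC of -2.66 for *pcp-3* in *cco-1* RNAi worms and -3.03 in ev worms. In *cco-1* RNAi worms these were the 4 of 8 genes that fell (23.1% of all genes tested), and in ev worms *crn-7* was the fifth (26.8%). None of the DNase II genes nor *pcp-5* was called by day 5 in *cco-1* RNAi worms, although *pcp-5* rose there by a log2FC of 0.51 without *cco-1* RNAi day 5 replicate 2 (0.46 and not called with it). In ev worms *crn-6* rose by a log2FC of 0.71 (31.6% of all genes tested rose) and *crn-7* fell by 0.66. From day 5 to day 11, *nuc-1* fell in *cco-1* RNAi worms (log2FC -0.71) and in ev worms (log2FC -2.54), as did *crn-6* (log2FC -1.11 in *cco-1* RNAi worms and -2.68 in ev worms). Over this second interval 6 of 8 genes fell in *cco-1* RNAi worms (17.2% of all genes tested) and 7 of 8 in ev worms (27.5%). *pcp-3* had a log2FC of -0.06 over these days in *cco-1* RNAi worms, with a 95% interval of -0.25 to 0.14, and of -1.55 in ev worms.

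The difference between the 2 age changes was tested as an interaction, in which the ev change is subtracted from the *cco-1* RNAi change. Between days 1 and 11 it was positive and called for 6 of the 8 genes, where it was positive and called for 17.2% of all genes tested. The pattern was shared with gene lists described below. The interaction was positive for 19 and negative for 6 of 28 other lysosomal protease genes. It was positive for 14 and negative for 1 of 20 intestinal markers, and for 14 and 0 of 16 muscle markers. Of 15 hypodermis markers 3 were positive and 9 negative, and of 8 other cell-death nuclease genes 0 were positive and 3 negative. Among the 8 genes the interaction was 2.21 for *nuc-1* (SE 0.106, limma adjusted P 2.4e-19), 1.86 for *pcp-3* (SE 0.137, limma adjusted P 4.98e-14) and 1.26 for *crn-6* (SE 0.151, limma adjusted P 7.05e-09). For *pcp-5* it was 1.11, for *pcp-2* 1.00 and for *pcp-1* 0.85. The *pcp-2* value was 1.78 with a pseudocount of 0.1, and 0.48 and not called with 5. It was not called for *pcp-4*, at 0.25 with a 95% interval of -0.03 to 0.53, nor for *crn-7*, at 0.26 with a 95% interval of -0.001 to 0.52.

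The *pcp-4* interaction depended on the pseudocount: it was 1.15 and called with 0.1 and -0.31 with 5. Between days 1 and 5 the interaction was called for *pcp-2* alone among the 8 genes, at 1.16 (SE 0.147, limma adjusted P 2.33e-08), where 17.5% of all genes tested had a positive call. *pcp-5* lay at the threshold with 0.4958. It was called, at 0.50 to 0.54, without 1 library in 6 of 12 cases, namely without ev day 1 replicate 1 or 2, ev day 5 replicate 1 or 3, *cco-1* RNAi day 1 replicate 2 or *cco-1* RNAi day 5 replicate 2. *crn-7* was called, at 0.51 and 0.54, without ev day 1 replicate 3 or ev day 5 replicate 3, so that the number of genes called ranged from 1 to 3.

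**Figure D4:**
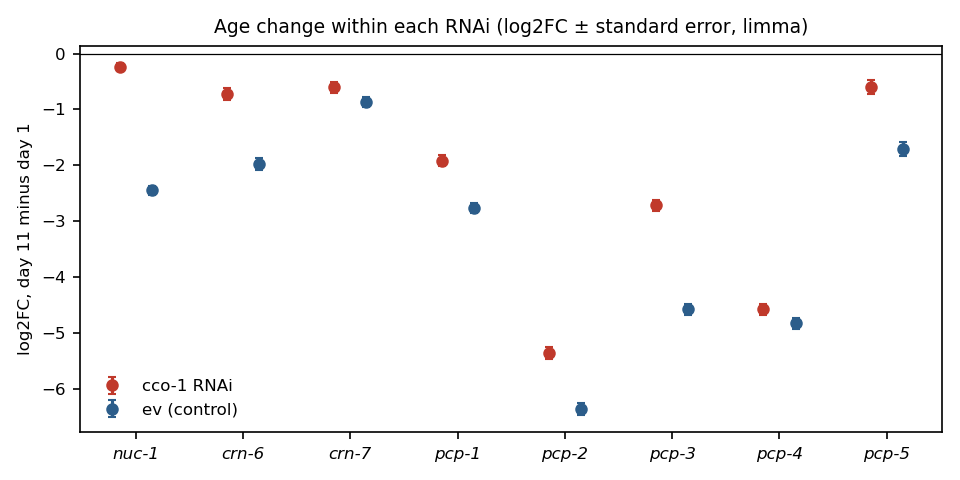
The log2FC from day 1 to day 11 (with its SE from limma) of each gene in *cco-1* RNAi worms and in ev worms, on a linear axis. The point of *cco-1* RNAi worms lies above that of ev worms for each gene, with the widest gap at *nuc-1* (-0.25 in *cco-1* RNAi worms, -2.45 in ev worms), and *nuc-1* in *cco-1* RNAi worms is the only point that was not called.

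Other genes of the same compartments give the setting. Of 28 other lysosomal protease genes tested (cathepsins and aspartic proteases, several of which the study picked from these samples, so that the list is not independent evidence of its direction), 9 were higher and 4 lower in *cco-1* RNAi worms at day 1, with a median log2FC of 0.08 against -0.01 for all genes. At day 11 the counts were 25 higher and 1 lower (median 1.48 against -0.08 for all genes), and the largest change was that of *asp-1*, an aspartic protease gene, at 3.46. The *pcp* median at day 11 was 0.90.

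Most other genes of DNA breakdown and engulfment were not called between the RNAi conditions at day 1 or day 11. The same held for all genes tested, of which 9.09% were called at day 1 and 28.3% at day 11. Of 8 other cell-death nuclease genes and their cofactors, none was lower and 1 was higher at day 1, namely *cps-6*, the mitochondrial endonuclease G gene, at a log2FC of 0.83. At day 5, 2 of the 8 were higher and 3 lower (33.4% of all genes called), and at day 7 again 2 and 3 (24.6%). The largest change of both days was that of *crn-4*, with a log2FC of -1.49 and -1.38, beside -1.51 and -1.35 for *nuc-1*. At day 11 none of the 8 was higher and 2 were lower, with a median of -0.28. Between days 1 and 11, 6 of the 8 rose and 1 fell in *cco-1* RNAi worms, where 34.1% of all genes tested rose. In ev worms 7 of the 8 rose and 1 fell, where 41.8% of all genes tested rose. Of 25 genes for engulfment of dying cells and phagosome maturation, 0 were called in either direction at day 1, with a median log2FC of -0.11. At day 5, 2 of the 25 were higher and 4 lower (33.4% of all genes called), and at day 7, 2 were higher and 3 lower (24.6%). At day 11, 3 were higher and 0 were lower.

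Markers of the tissues that could hold these transcripts were set beside them. Of all genes tested, 9.09% were called between the RNAi conditions at day 1 and 28.3% at day 11, where 15.1% were called higher. Of the 20 intestinal markers tested, 1 was higher and 4 were lower at day 1, with a median log2FC of -0.03 and summed levels of 3514 to 3588 CPM in *cco-1* RNAi worms and 3138 to 3164 CPM in ev worms. The part of gut RNA content in the lower *nuc-1*, *crn-6* and *pcp-3* levels of day 1 was not tested. At day 11, 11 of the 20 were higher and 0 lower, with a median of 0.56 and summed levels of 887 to 1117 CPM in *cco-1* RNAi worms and 622 to 650 CPM in ev worms, and their part in the higher *pcp* levels of day 11 was not tested. With age, 15 of the 20 intestinal markers fell between days 1 and 11 in *cco-1* RNAi worms (23.7% of all genes tested). In ev worms 17 of the 20 fell (27.4%).

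None of the 6 markers of coelomocytes, scavenger cells of the body cavity, was called at day 1, with summed levels of 474 to 495 CPM in *cco-1* RNAi worms and 554 to 568 CPM in ev worms. At day 11, 2 of the 6 were higher, with summed levels of 372 to 411 CPM in *cco-1* RNAi worms and 399 to 418 CPM in ev worms. Muscle markers were uncalled at day 1, and 15 of 16 were already higher at day 3 (median 0.92), where 17.3% of all genes tested were called. At day 11, 14 of 16 muscle markers were higher, with a median of 1.78, where 15.1% of all genes tested were higher. Of 15 hypodermis markers, 9 were higher and 0 lower at day 1 (median 0.78), and 4 were higher and 2 lower at day 11. Neuronal and germline markers were uncalled at day 1. At day 11, 4 of 17 neuronal markers were higher and 1 lower (median 0.24), and 0 of 20 germline markers were higher and 2 lower (median -0.05). Of 22 oocyte and embryo markers, 0 were higher and 2 lower at day 1, and 7 were higher and 0 lower at day 11 (median 0.12). No marker was listed at 0 in any library, since the table holds no value of 0.

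Divided by exon length, so that genes can be set against each other, the 8 genes changed places. In ev worms at day 1, *nuc-1* was the most abundant at 75.2 CPM per kb, followed by *pcp-3* at 47.1 and *pcp-5* at 45.5 CPM per kb. In *cco-1* RNAi worms at day 1, *pcp-5* was first at 41.7 CPM per kb and *nuc-1* had 19.7 CPM per kb, between the 19.1 CPM per kb of *pcp-4* and the 25 CPM per kb of *pcp-3*. At day 11, *pcp-5* had 28.1 ± 7.71 and *nuc-1* 16.6 ± 2.33 CPM per kb in *cco-1* RNAi worms, and in ev worms they had 13.5 ± 0.669 and 13.1 ± 0.838 CPM per kb (SD, n = 3 each). *pcp-2* and *pcp-4* were last at day 11 under both conditions, between 0.114 and 0.497 CPM per kb.

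Likeness of profile was measured as the correlation of 12 group means of log2(CPM + 1) with 9727 genes that reach 10 CPM, and it is a description of means from shared libraries. *pcp-2* was closest to *gcsh-1*, a glycine cleavage system gene (r = 0.999), *elo-6*, a fatty acid elongase gene (0.995), and *pmt-2*, a phosphoethanolamine methyltransferase gene (0.994). *pcp-4* was closest to *mec-12*, an alpha-tubulin gene (0.996), *fkb-8* and *zip-3* (0.995 each), and *pcp-5* to the serpin gene *srp-1* and *F53H4.2* (0.991 each) and *ttr-24* (0.99). *pcp-1* was closest to *C06A6.5* (0.969), *unc-32*, which encodes a V-ATPase subunit (0.967), and the lysozyme gene *lys-4* (0.965), and *pcp-3* to the myosin gene *hum-5* (0.963), *Y56A3A.6* and *F20G2.2* (0.96 each).

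*nuc-1* was closest to *pgp-5*, an ABC transporter gene (0.976), and *oac-32* (0.974), followed by *crn-6* (0.961). *crn-6* was closest to *cyp-35C1*, a cytochrome P450 gene (0.97), *ptps-1* (0.966) and the glypican gene *lon-2* (0.964). *crn-7* was closest to *D2023.1* (0.981), *F08D12.2* (0.98) and *Y47G6A.33* (0.978). Among the 8 genes, the pair *pcp-2* and *pcp-4* had r = 0.975, although they lie on chromosomes IV and V. The neighbours *pcp-2* and *pcp-3* had 0.82. Exon bases of the 8 genes were not shared with any other annotated gene, although non-coding RNA genes lie within the span of *pcp-4*.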

How the data were processed

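Reads of polyA-selected RNA from whole worms were mapped by the authors to WBcel235 with STAR and counted over exons, ignoring strand. Processing notes of the submitters name STAR 2.73a and edgeR 3.24.3. The authors deposited normalized CPM values for 36 libraries: library sums were 916765 to 953972, no value was 0, and the 10th and 100th highest values (3019 and 962 CPM) were equal in all libraries, as after quantile normalization. Read depth is therefore unknown, and no counting intervals could be given. Log2 fold changes and P values of the authors' own comparisons, and their gene set enrichment results, were not used.

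Values of log2(CPM + 1) were modelled by group (12 groups, all libraries) in limma 3.58.1 (R 4.3.3, statmod 1.5.0; trended, robust variances; 24 residual degrees of freedom) over the 15713 genes that reached 1 CPM in 3 or more libraries, with 14 contrasts and Benjamini-Hochberg adjustment. Calls needed a log2FC above 0.5 in size and an adjusted P below 0.05. The fit was also run on simulated data, in which a gene had the same spread in all 12 groups and libraries were independent. Those data could therefore not show what less alike replicates do to SE and adjusted P. The alternatives were other filters (none, 5 CPM), pseudocounts of 0.1 and 5, quantile normalization, median scaling, a replicate block, array weights, fits on the groups compared and leaving out each library. Replicates are biological replicates by the study's account.

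The 8 genes and the gene lists were chosen with earlier results of these data known. Named genes are the 8 genes, *cco-1*, the 3 genes closest in profile to each, and the most changed called gene of a list. A planned search for relatives by protein sequence was not run, and no sequences were used here. Of listed genes, 28 of 35 lysosomal proteases, 25 of 26 engulfment, 20 of 21 intestinal and 16 of 17 muscle genes were tested. Positions and exon lengths are from a WBcel235 annotation. Lists of hypodermis, neuron, germline and oocyte or embryo markers were tested too. Plots were made in Python 3.11.15 (matplotlib 3.10.9).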

Additional observations from a re-analysis of the deposited data

Results flagged for a closer look

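For 7 results the age change differed between *cco-1* RNAi and ev worms by the interaction term of limma, with Benjamini-Hochberg adjustment over all genes tested. Between days 1 and 11 the *cco-1* RNAi change less the ev change was 2.21 for *nuc-1*, 1.86 for *pcp-3*, 1.26 for *crn-6*, 1.11 for *pcp-5*, 1.00 for *pcp-2* and 0.85 for *pcp-1*. Between days 1 and 5 it was 1.16 for *pcp-2*. For *nuc-1*, *crn-6* and *pcp-3* it stood beside lower levels in *cco-1* RNAi worms at day 1, and for *pcp-1*, *pcp-2* and *pcp-5* beside differences at day 1 that were not called.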

How the results depend on the processing

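The pseudocount moved the most values. With 5 in place of 1, the number of all genes called between *cco-1* RNAi and ev was 874, 1224, 2708, 1984, 1247 and 2194 over the 6 days in order, against 1429, 2715, 5241, 3862, 2849 and 4454 with 1. It was 3178 for day 11 minus day 5 in *cco-1* RNAi worms (5333 before), 2853 for the interaction at day 5 (5427) and 3036 for that at day 11 (5545). Of the 8 genes, those called at day 11 were then 3 in place of 5, and the *pcp-4* interaction turned to -0.032 at day 5 and -0.31 at day 11. It also ended the calls of *pcp-3* at day 5 (-0.43), of *crn-6* and *crn-7* between days 1 and 11 in *cco-1* RNAi worms (-0.44 and -0.43), of *crn-7* between days 1 and 5 in ev worms (-0.46) and of the *pcp-2* interaction at day 11 (0.48). Those called for the interaction at day 5 were 3 with a pseudocount of 0.1, 2 with median scaling and 2 with array weights, against 1, and 1 to 3 when each library was left out.

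Leaving out 1 library turned the sign of values that were not called: *pcp-1* at day 1 (-0.032 to 0.065), *crn-7* at day 1 (-0.043 to 0.042) and at day 9 (-0.014 to 0.126), and *pcp-3* between days 5 and 11 in *cco-1* RNAi worms (-0.177 to 0.0675). It ended 2 calls, *pcp-3* at day 5 and *pcp-5* between days 1 and 11 in *cco-1* RNAi worms. No direction or call of the 8 genes changed without a filter, with a filter of 5 CPM or in fits on the groups compared. Quantile normalization changed none either, but the deposited values already look quantile-normalized, so that repeating it says little about stability. Over the 12 pairs of groups compared, replicate numbers did not pair the samples: in 0 of 12 did all 3 numbers correlate above 0.1 (range -0.138 to 0.207). Outside these pairs, deviations of *cco-1* RNAi days 9 and 11 correlated at 0.649, 0.655 and -0.029 for replicates 1, 2 and 3. In the comparisons a replicate block changed no call of the 8 genes, and the number of all genes called moved slightly, with 1431 at day 1 in place of 1429. The cause of these dependencies was not tested beyond the construction of the log scale, on which a larger pseudocount shrinks differences between low values.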
